A study of Mus musculus with 12 samples.

Results

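The genes described here encode the arrestin-domain proteins Arrdc1, Arrdc2, Arrdc3, Arrdc4 and Txnip, 5 of the 54134 genes that the count table lists. They were found by gene symbol, and all 5 were among the 15585 genes that passed edgeR's filter on low counts. The family was chosen on the contrast between AAV-Notum and AAV-GFP mice, in which Arrdc3 had an adjusted p under 0.05. The differences between the groups are therefore given as a description and support nothing by themselves.

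RNA was sequenced from inguinal white adipose tissue (iWAT), the subcutaneous fat pad of the groin, of 12 male C57BL/6J mice, with 1 library per mouse. At 8 weeks of age, 6 mice received an AAV8 vector for GFP (AAV-GFP mice) and 6 the same vector for mouse Notum (AAV-Notum mice) through the tail vein. The liver-specific thyroxine binding globulin promoter drove either transgene. All mice ate chow for 4 weeks and were fasted for 4 h before the fat was taken. Notum is a secreted enzyme that inactivates Wnt proteins by removing their lipid.

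Arrestin-domain proteins of this family, the alpha-arrestins, are adaptors. They bind membrane proteins with their arrestin folds and, through short proline-rich motifs in their tails, recruit ubiquitin ligases of the Nedd4 type, which sends the cargo into endosomes. Arrdc3 has been tied to the turnover of beta-adrenergic receptors and to body weight and energy expenditure in mice. Txnip binds thioredoxin and restrains glucose uptake by removing glucose transporters from the cell surface, and Arrdc4 acts on the same transporters. Arrdc1 recruits the sorting protein Tsg101 to the plasma membrane, where vesicles bud outward. Arrdc2 is the least studied of the 5. Transcription of Txnip and Arrdc4 follows glucose through the factors MondoA and ChREBP with their partner Mlx, which bind a pair of E box-like motifs.

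The stretches in front of the start sites of Arrdc3, Txnip and Arrdc4 are printed because these are the members that differed most between the groups and the pair of glucose-responsive genes. Each holds the 250 bases upstream of a RefSeq start site on GRCm38.p6, read 5′ to 3′ on the gene's own strand, with these positions: Arrdc3 at chr13:80883134-80883383 (plus strand), Txnip at chr3:96557707-96557956 (plus strand) and Arrdc4 at chr7:68749239-68749488 (minus strand). Capitals mark a CCAAT, the reverse of ATTGG, in Arrdc3. In Txnip they mark a GTAAACA followed by a CACGNG pair, and in Arrdc4 a CACGTG.
Arrdc3: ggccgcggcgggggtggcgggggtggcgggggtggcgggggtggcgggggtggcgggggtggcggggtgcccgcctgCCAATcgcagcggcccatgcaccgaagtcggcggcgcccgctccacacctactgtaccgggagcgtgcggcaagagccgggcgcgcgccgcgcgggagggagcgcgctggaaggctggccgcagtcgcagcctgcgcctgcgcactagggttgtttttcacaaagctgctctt
Txnip: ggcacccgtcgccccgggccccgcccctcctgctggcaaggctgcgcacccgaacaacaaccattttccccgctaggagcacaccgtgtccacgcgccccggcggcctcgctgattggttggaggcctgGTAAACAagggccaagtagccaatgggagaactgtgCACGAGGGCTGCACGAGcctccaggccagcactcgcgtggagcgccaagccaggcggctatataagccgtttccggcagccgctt
Arrdc4: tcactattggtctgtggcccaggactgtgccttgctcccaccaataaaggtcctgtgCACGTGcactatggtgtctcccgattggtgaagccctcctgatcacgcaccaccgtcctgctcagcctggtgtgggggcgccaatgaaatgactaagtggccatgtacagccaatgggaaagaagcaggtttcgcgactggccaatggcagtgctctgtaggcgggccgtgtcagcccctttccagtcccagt

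Txnip was the only member with CACGNG, 5 bases and CACGNG again, from -85 to -69 relative to the start, an arrangement held by 0.0457% of 32817 promoter stretches of the same length. Either motif of the Txnip pair read CACGAG, a motif in 5.36% of the stretches that Arrdc1 held at 2 sites and Arrdc2 at 1. Arrdc4 held CACGTG, found in 6.02% of the stretches, from -193 to -188. GTAAACA, a core bound by forkhead factors and found in 3.16% of the stretches, was present in Txnip only, from -121 to -115. ATTGG, the core of the CCAAT box and found in 33.8% of the stretches, was present at 6 sites in Arrdc4, 3 in Arrdc2, 2 in Txnip and 1 in the Arrdc3 stretch, and at no site in Arrdc1. Of the 8 motifs searched on both strands, that ATTGG was the only match in the Arrdc3 stretch printed, whose GC content of 76% was the highest of the members (58% in Arrdc4 to 66.8% in Txnip for the others). RefSeq gives Arrdc3 a further 2 start sites, at 80883422 and 80886095, of which the stretch before 80883422 overlaps the one printed and has a GC content of 70.8%. The bases just after the printed start lie in 1 of 6 GENCODE transcripts of Arrdc3, and those after 80883422 in 3 of 6. For the start used for Arrdc1 they lie in 0 of 12 transcripts. AGAACA, part of the sites of the glucocorticoid receptor and held by 16.1% of the stretches, was in no member's stretch. The same held for the cores of Tcf sites, which carry Wnt signals. These were CTTTGAT, held by 3.21% of the stretches, and its variant CTTTGAA, held by 4.46%. CACGAG overlaps the CACGNG pair, and a match is a string of letters, not a site shown to be bound.

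Between 14711113 and 21618860 reads per mouse were counted on genes. The RNA integrity number, a score of RNA quality, ran from 5.7 (AAV-GFP-2011) to 7.6, and RNA of AAV-GFP-2012 was isolated on another day than the rest. Adipocyte markers were abundant in every mouse (8 of 8 tested, summing to 23181 to 39017 CPM in AAV-GFP and 19901 to 46627 CPM in AAV-Notum mice), CPM being counts relative to library sizes adjusted by TMM. The 15 lymphoid markers varied widely among AAV-GFP mice. Their mean level was -0.05 and -0.70 log2 CPM in AAV-GFP-2011 and AAV-GFP-2014, 3.47 in AAV-GFP-2012, 6.06 to 6.70 in the other AAV-GFP mice and 4.95 to 7.01 in AAV-Notum mice. Their sum ran from 9.24 to 1744 CPM in AAV-GFP and from 535 to 2318 CPM in AAV-Notum mice. In bulk tissue, fewer cells of a type and less RNA per cell cannot be told apart. Notum itself had 0.06 to 0.99 CPM in iWAT of AAV-GFP mice and 0.46 to 29.3 CPM in AAV-Notum mice (means 0.39 and 9.75 CPM), with overlapping groups. The transgene was meant for the liver, so these values do not check the labels. Where the Notum transcripts in iWAT came from was not tested.

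Arrdc3 (ENSMUSG00000074794, chromosome 13 of GRCm38, 80883384 to 80896042, plus strand) was lower in AAV-Notum mice. Its level in AAV-GFP mice was 76.8 CPM in AAV-GFP-2011, 131 in AAV-GFP-2012, 68.4 in AAV-GFP-2013, 105 in AAV-GFP-2014, 134 in AAV-GFP-2021 and 111 in AAV-GFP-2022. It was 46.3 CPM in AAV-Notum-2031, 52.6 in AAV-Notum-2032, 56.6 in AAV-Notum-2033, 34.7 in AAV-Notum-2034, 40.6 in AAV-Notum-2041 and 45.9 in AAV-Notum-2042. The groups did not overlap, and AAV-GFP-2011 and AAV-GFP-2013 stood closest to the AAV-Notum mice. The means were 104 ± 27.2 and 46.1 ± 7.90 CPM (SD, n = 6 each), from 614 to 2912 reads per mouse. The fitted log2 fold change was -1.18, with a standard error (SE) of 0.18, a level 55.8% lower.

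The quasi-likelihood test of edgeR gave Arrdc3 an adjusted p of 0.0495, rank 8 of the 15585 genes by p, close to the threshold of 0.05 that chose it. Just inside the threshold lay Fosl2 (adjusted p = 0.0341), Synpo2 (adjusted p = 0.0495) and Arrdc3. Outside it lay Mest and Endou, each at an adjusted p of 0.0518. At that threshold 0.0513% of all genes were called lower in AAV-Notum mice, and 1 of the 5 members, Arrdc3. When single mice were left out, the adjusted p of Arrdc3 ran from 0.0135 to 0.155 and stayed under 0.05 only without AAV-GFP-2013 (0.0135) or AAV-GFP-2022 (0.0294), while the log2 fold change stayed between -1.27 and -1.09. Those 2 fits also called more of all genes lower, 18 and 146 against 8 with all mice. It was 0.0782 with the score of lymphoid markers as a covariate (log2 fold change -1.24) and 0.131 without AAV-GFP-2011 and AAV-GFP-2014 (-1.27).

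Txnip (ENSMUSG00000038393, chromosome 3, 96557957 to 96561883, plus strand) ranked 45 of 15585 genes by mean level, and 17958 to 52153 reads per mouse lay behind its values. In the same order of mice, AAV-GFP mice had 2312, 2790, 1597, 3108, 1924 and 1650 CPM. AAV-Notum mice had 1289, 1124, 1222, 1139, 1105 and 1343 CPM. Again no AAV-Notum mouse reached the lowest AAV-GFP mouse. The AAV-Notum mice lay close together, with a coefficient of variation of 8.09% against 27.8% in AAV-GFP mice. The means were 2230 ± 620 and 1204 ± 97.4 CPM (SD, n = 6 each), with a log2 fold change of -0.89 (SE 0.18).

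Txnip missed the threshold in edgeR (adjusted p = 0.102, rank 42 by p) and passed it in DESeq2 (adjusted p = 1.62e-04). DESeq2 called 2 members, Arrdc3 (adjusted p = 2.21e-06) and Txnip, and called 367 of all genes lower. That is 1.15% of the 31947 genes with at least 1 count, a wider set than the 15585 genes of edgeR, so the shares of the 2 programs are not alike. Txnip also passed in edgeR without AAV-GFP-2022 (adjusted p = 0.0328), a fit that called 146 of 15707 genes lower, or 0.93%. A gap between the groups, with every AAV-Notum mouse below every AAV-GFP mouse, was found for 0.693% of all genes tested and for 2 of the 5 members, again Arrdc3 and Txnip. Since the same contrast chose the family, nothing is read from these shares.

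The reads of Txnip also differed between the 2 deposited sets of counts, for a reason that was not tested. Gm15441, a gene on the opposite strand, spans the whole 3927 bases of Txnip, and whether counting used the strand is not given in the sources used here, so reads of the pair cannot be told apart. In the authors' second, normalized table, Txnip held 81.0% to 84.1% of the reads of the first, against 100% to 103% for the other members. Gm15441 had 5.83 ± 1.82 CPM in AAV-GFP and 3.58 ± 1.21 CPM in AAV-Notum mice (SD, n = 6 each; log2 fold change -0.70, SE 0.25, adjusted p of 0.250 in edgeR). With the reads of the second table the log2 fold change of Txnip was -0.88. Arrdc3 overlaps an opposite-strand gene as well, 1700023H06Rik, which had 0 to 1 reads.

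Arrdc1 (ENSMUSG00000026972, chromosome 2, 24925352 to 24935252, minus strand) lay in the other direction, without a gap. In the order used for Arrdc3, AAV-GFP mice had 16.3, 15.5, 36.6, 12.7, 30.8 and 35.3 CPM. AAV-Notum mice had 46.2, 44.5, 33.0, 40.9, 27.9 and 19.2 CPM. The AAV-GFP mice split into 3 mice at 12.7 to 16.3 CPM and 3 at 30.8 to 36.6 CPM, and 3 AAV-Notum mice were above all of them. The means were 24.6 ± 10.9 and 35.3 ± 10.5 CPM (SD, n = 6 each), a log2 fold change of 0.52 (SE 0.30, adjusted p of 0.426 in edgeR).

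Arrdc4 (ENSMUSG00000042659, chromosome 7, 68736995 to 68749241, minus strand) was the steadiest member. Its lowest, median and highest levels were 23.4, 27.4 and 31.3 CPM in AAV-GFP mice and 23.3, 26.9 and 28.3 CPM in AAV-Notum mice, so the groups lay on top of each other. The log2 fold change was -0.03 (SE 0.09, adjusted p of 0.875 in edgeR), and its sign turned without AAV-Notum-2033 or AAV-GFP-2022. Arrdc2 (ENSMUSG00000002910, chromosome 8, 70835129 to 70839720, minus strand) was barely expressed, with 17 to 56 reads per mouse. Its lowest, median and highest levels were 1.40, 1.73 and 2.58 CPM in AAV-GFP and 1.05, 1.67 and 1.81 CPM in AAV-Notum mice. AAV-Notum-2041 and AAV-Notum-2042, with 17 reads each, lay below all AAV-GFP mice, and the log2 fold change was -0.29 (SE 0.20, adjusted p of 0.482).

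**Figure D1:**
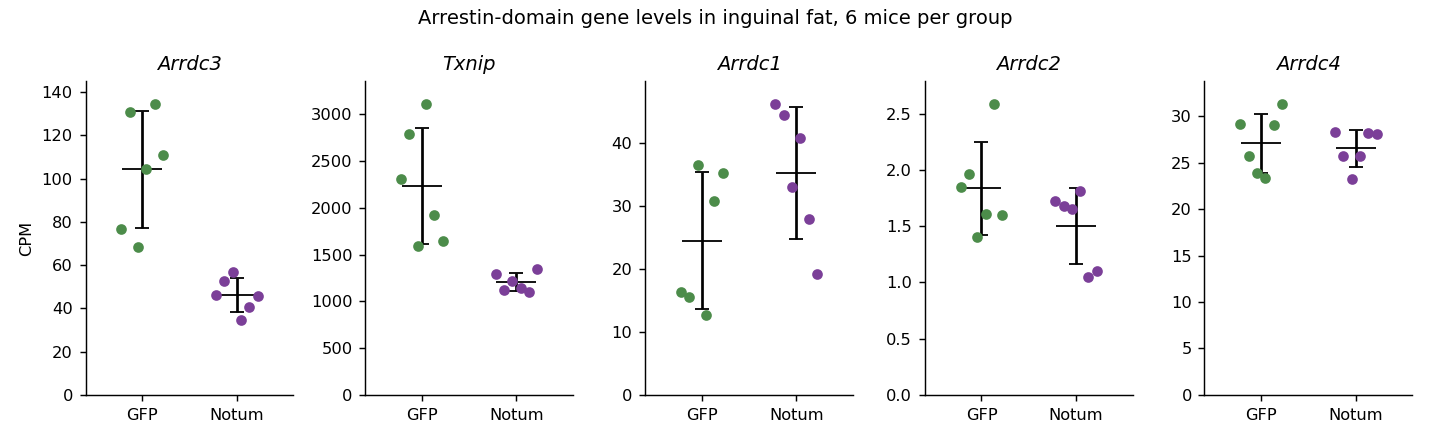
Levels of the 5 members in CPM, each axis starting at 0, with 1 point per mouse and black bars for the mean ± SD of 6 mice. The groups are separated for Arrdc3 and Txnip and overlap for Arrdc1, Arrdc2 and Arrdc4.

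Arrdc3 was next set against the other members within each mouse, which removes whatever scales all members alike. As the log2 ratio of CPM, Arrdc3 stood 1.34 ± 0.35 above the mean of the other 4 members in AAV-GFP mice and 0.34 ± 0.30 above it in AAV-Notum mice (SD, n = 6 each). The lowest AAV-GFP mouse was at 0.84 and the highest AAV-Notum mouse at 0.66, so this ratio left no overlap. The difference was -1.01, and between -1.11 and -0.91 with any mouse left out. It carries no test, because the same contrast chose Arrdc3.

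Partner by partner, the ratio differed most against Arrdc1, from 2.16 ± 0.83 to 0.43 ± 0.54 (difference -1.74), with 5 of 6 AAV-Notum mice below all AAV-GFP mice. Against Arrdc4 it went from 1.91 ± 0.39 to 0.78 ± 0.32 (difference -1.13), and against the weakly expressed Arrdc2 from 5.72 ± 0.30 to 4.85 ± 0.39 (difference -0.88), both without overlap. Against Txnip it went from -4.42 ± 0.47 to -4.72 ± 0.25. That difference of -0.30 was smaller than the pooled SD of 0.37, and 1 of 6 AAV-Notum mice lay below all AAV-GFP mice. Arrdc3 was thus lower relative to Arrdc4 and Arrdc2 in every AAV-Notum mouse, and its ratio to Txnip differed by less than the scatter of the mice.

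**Figure D2:**
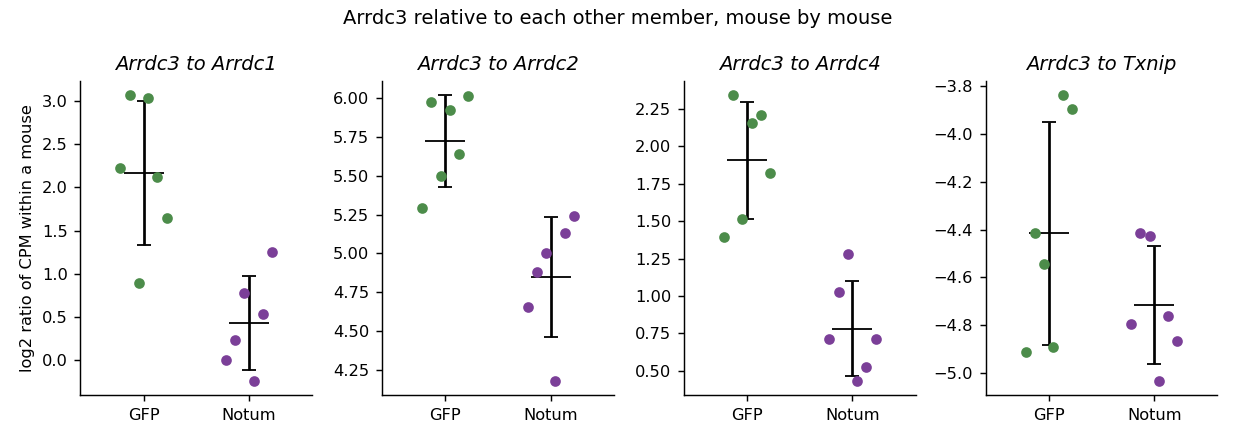
Log2 ratio of Arrdc3 to each other member within a mouse, with 1 point per mouse and bars for the mean ± SD of 6 mice. The groups part for Arrdc2 and Arrdc4, nearly part for Arrdc1 and overlap for Txnip, where the means are -4.42 and -4.72.

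The levels of the members were also ordered, per length, among the 6 AAV-GFP mice. In CPM divided by exon length in kilobases (RPKM), Txnip had 714 ± 199, Arrdc3 16.6 ± 4.34, Arrdc1 9.78 ± 4.33, Arrdc4 6.70 ± 0.80 and Arrdc2 0.57 ± 0.13 (SD, n = 6 each). Txnip lay above Arrdc3 by 5.42 and Arrdc4 above Arrdc2 by 3.58 on the log2 RPKM scale, each in 6 of 6 mice. Both differences had a two-sided exact sign-flip permutation p of 0.0312, the smallest that 6 mice allow, and 0.0625 after adjustment over the 4 neighbouring pairs. The order was set and tested in the same 6 mice, so these p-values describe the gaps and are no independent evidence for the order. Arrdc3 was above Arrdc1 by 0.85 in 5 of 6 mice (exact permutation p = 0.0938, adjusted 0.125). Arrdc1 and Arrdc4 differed by 0.43, with Arrdc1 higher in 3 of 6 mice (exact permutation p = 0.25), so this pair has no settled order, and over coding length in place of exon length Arrdc4 came first, by 0.31. In AAV-Notum mice, Arrdc1 at 14.1 ± 4.19 RPKM lay above Arrdc3 at 7.36 ± 1.26 RPKM in 6 of 6 mice, but over coding length Arrdc3 came first, by 0.45, in 5 of 6. No member reached the level of Txnip, at 385 ± 31.2 RPKM in AAV-Notum mice.

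The members differed in how they varied with lymphoid transcripts. After each group's mean was subtracted, Arrdc1 went up and Txnip went down with the lymphoid marker score over the 12 mice (Pearson r = 0.86 and -0.81), and Arrdc1 and Txnip ran against each other (r = -0.82). The 3 AAV-GFP mice of lowest lymphoid score, AAV-GFP-2011, AAV-GFP-2012 and AAV-GFP-2014, were those with the lowest Arrdc1 and the highest Txnip. Without AAV-GFP-2011 and AAV-GFP-2014 the correlations with the score were 0.96 for Arrdc1 and -0.87 for Txnip (n = 10). Arrdc1 was also lower where adipocyte markers were higher (r = -0.92), and Txnip was higher there (r = 0.73). All these values share 1 library per mouse, so they are descriptions without a test.

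Arrdc3 did not follow that pattern over the 12 mice. Its correlation with the lymphoid score was 0.12 over 12 mice. In the 10 mice left without AAV-GFP-2011 and AAV-GFP-2014 it was -0.32, of the same sign as that of Txnip. With Txnip it was 0.30 and 0.54. Arrdc3 correlated with the RNA integrity number at 0.65, AAV-GFP-2011 having the lowest number, and with that number as a covariate its log2 fold change was -1.30 (adjusted p of 0.0222 in edgeR). With the lymphoid score as a covariate the log2 fold change of Arrdc1 went from 0.52 to 0.05 and that of Txnip from -0.89 to -0.59 (adjusted p = 0.312), while that of Arrdc3 went from -1.18 to -1.24. Without AAV-GFP-2011 and AAV-GFP-2014 the values were 0.26 for Arrdc1, -0.73 for Txnip (adjusted p = 0.396) and -1.27 for Arrdc3.

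**Figure D3:**
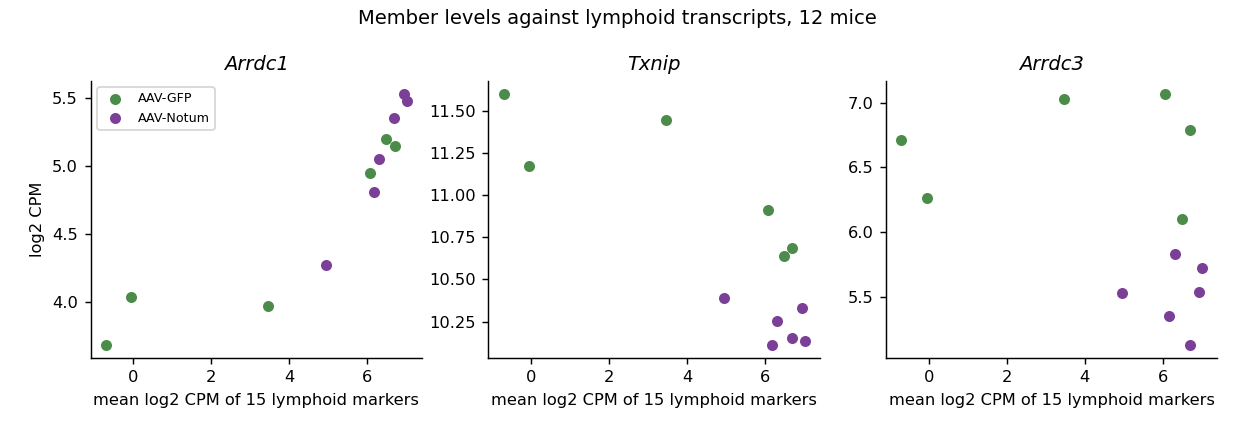
Log2 CPM of Arrdc1, Txnip and Arrdc3 in each of 12 mice against the mean log2 CPM of 15 lymphoid markers. Arrdc1 climbs and Txnip declines with the score (r = 0.86 and -0.81 after group means are subtracted). Arrdc3 shows little relation to it over the 12 mice (r = 0.12), with r of -0.32 without AAV-GFP-2011 and AAV-GFP-2014.

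**Figure D4:**
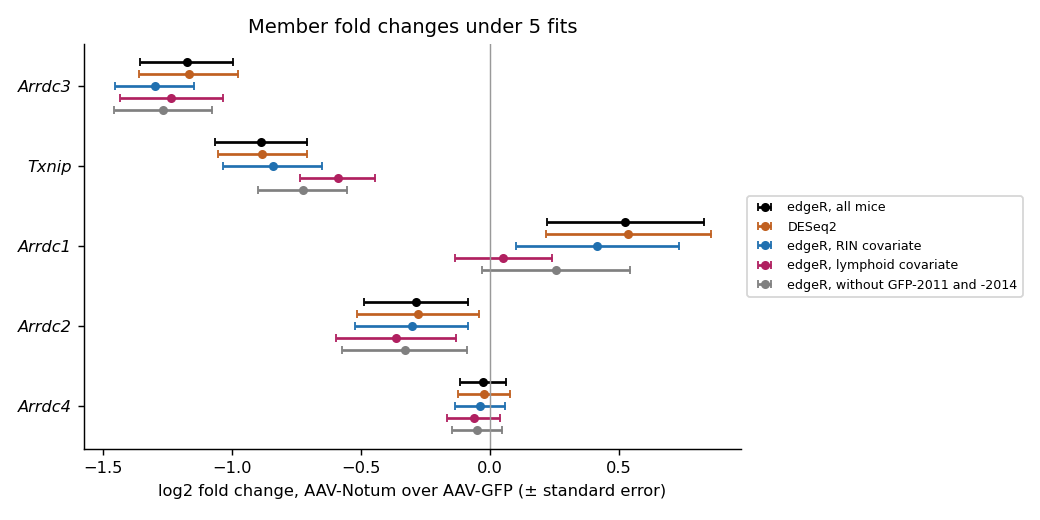
Log2 fold change of each member, AAV-Notum over AAV-GFP, under 5 fits, with bars for the standard error. Arrdc3 stays between -1.30 and -1.17 in these fits, Txnip between -0.89 and -0.59, Arrdc1 between 0.05 and 0.54, and Arrdc4 near 0.

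The genes that varied most like Arrdc3 between mice were Tecpr2 (r = 0.88), Zfp809 (0.84), Rnf216 (0.84), Lamtor3 (0.80) and Hps5 (0.79). They are the highest of 12891 genes with a mean of at least 1 log2 CPM, by the correlation over 12 mice after group means were subtracted. Unlike Arrdc3, these genes had log2 fold changes between the groups of only -0.15 (Zfp809) to 0.14 (Lamtor3), with adjusted p from 0.361 to 0.843 in edgeR. Without AAV-GFP-2011 and AAV-GFP-2014 their correlations were 0.76 to 0.90 and their ranks 1 (Tecpr2), 9, 16, 31 and 62, so 4 of the 5 were no longer among the 5 genes most like Arrdc3.

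The partners and regulators of the family were counted in lists of 95 genes, of which 89 were tested. At an adjusted p under 0.05 in edgeR, 0 of the 89 were called in either direction. At an unadjusted p under 0.05, 17 were lower and 4 higher in AAV-Notum mice, where 9.54% of all genes were lower and 4.64% higher. The median log2 fold change of the 89 genes was -0.13, against 0.01 over all genes tested, of which 48.8% had a negative value. With the lymphoid covariate the median of the 89 genes was -0.04, and without AAV-GFP-2011 and AAV-GFP-2014 it was -0.08. Over all genes it was -0.004 and 0.007 in these fits. DESeq2 called 5 of the listed genes lower (Cebpd, Errfi1, Irs2, Per1 and Zbtb16) and 1 higher (Mlx). Of the 31947 genes with at least 1 count, a wider set than that of edgeR, it called 1.15% lower and 0.263% higher. With the lymphoid covariate 9 of the 89 were lower and 12 higher at the unadjusted threshold, where 4.92% and 4.29% of all genes were. Without AAV-GFP-2011 and AAV-GFP-2014 8 were lower and 7 higher, where 4.95% and 2.16% of all genes were. These lists were drawn up with earlier results of the same mice known, so their counts are descriptions.

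Among other genes with an arrestin fold, 6 of 8 were tested and 0 passed an unadjusted p of 0.05, where 9.54% of all genes were lower and 4.64% higher. The beta-arrestins Arrb1 and Arrb2, which desensitize receptors of the adrenergic kind, had log2 fold changes of -0.13 (SE 0.09) and 0.47 (SE 0.33). Arrb2 had 53.1 ± 27.4 CPM in AAV-GFP and 73.5 ± 21.4 CPM in AAV-Notum mice (SD, n = 6 each), with overlapping groups. With the lymphoid covariate no gene of the list was above 0.07. Vps26a, a subunit of the retromer that recycles membrane proteins, was at -0.12. Arrdc5, the remaining member of the Arrdc family, had 0 reads in all 12 mice.

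Nedd4 and Nedd4l, ligases that the alpha-arrestins recruit, were the 2 of 10 ligase and adaptor genes below an unadjusted p of 0.05, where 9.54% of all genes were lower. With single mice left out, 0 to 4 genes of the list were lower, where 1053 to 2138 of all genes were. Nedd4 had 1515 ± 384 CPM in AAV-GFP and 1094 ± 263 CPM in AAV-Notum mice (log2 fold change -0.47, SE 0.20, adjusted p of 0.327 in edgeR), and Nedd4l differed by -0.20 (adjusted p = 0.316). The list's median was -0.16. With the lymphoid covariate it was -0.04 and 0 of the 10 passed, as many as without AAV-GFP-2011 and AAV-GFP-2014, a count near the shares of all genes in those fits. Ndfip1, an activator of these ligases, stood at -0.19. Of 9 genes of the sorting machinery, 0 passed an unadjusted p of 0.05, and their log2 fold changes ran from -0.19 (Stam) to 0.16 (Vps28).

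Among 8 membrane proteins reported as cargo, Adrb1 and Insr were lower at an unadjusted p under 0.05, where 9.54% of all genes were. Adrb1, the beta-1 adrenergic receptor, had 6.89 ± 2.3 CPM in AAV-GFP and 4.02 ± 1.00 CPM in AAV-Notum mice (SD, n = 6 each; log2 fold change -0.78, SE 0.26, adjusted p of 0.224 in edgeR). Insr, the insulin receptor, differed by -0.47 (SE 0.18, adjusted p of 0.270). Itgb4, an integrin subunit, stood at -0.34 (adjusted p = 0.396). With the lymphoid covariate 0 of the 8 were lower and 1 was higher at that unadjusted threshold, where 4.92% of all genes were lower and 4.29% higher. The lowest value went from -0.78 to -0.40. Of 13 genes of the thioredoxin system, 1 was lower without the covariate, a count near the share of all genes. It was the peroxiredoxin Prdx6, with 261 ± 99.2 CPM and 172 ± 21.7 CPM (log2 fold change -0.60, adjusted p = 0.279). The median of the list was -0.05. With the lymphoid covariate the direction of this list turned, to a median of 0.19 with 0 genes lower and 4 higher.

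The list of Mondo and Mlx factors with their glucose-responsive targets had a median of 0.18 in edgeR, and of 0.03 in DESeq2, which tested 13 of its genes. Of 12 genes tested, 4 were higher at an unadjusted p under 0.05 (Mlx, Elovl6, Me1 and Acaca) and 0 lower, where 4.64% of all genes were higher and 9.54% lower. Mlx had 31.1 ± 1.45 CPM in AAV-GFP and 39.6 ± 5.24 CPM in AAV-Notum mice (SD, n = 6 each; log2 fold change 0.35, adjusted p of 0.140 in edgeR). Elovl6, which lengthens fatty acids, and the malic enzyme Me1 had log2 fold changes of 1.40 (SE 0.50, adjusted p of 0.254) and 1.04 (SE 0.37, adjusted p of 0.247). For each of the 3, the groups overlapped. With the lymphoid covariate 6 of the 12 were higher, where 4.29% of all genes were, and the median was 0.32. Without AAV-Notum-2041 2 were higher, and Elovl6, still the highest of the list, stood at 0.95.

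Of 17 genes of the Foxo list, 4 were lower at an unadjusted p under 0.05 (Irs2, Bnip3, Cited2 and Pdk4) and 0 higher, where 9.54% of all genes were lower and 4.64% higher. The median of the list was -0.14, but -0.08 in DESeq2, -0.06 in limma-voom and -0.07 in edgeR without AAV-Notum-2042. Irs2, the docking protein of the insulin receptor, had 162 ± 49.8 CPM and 87.7 ± 17.7 CPM (SD, n = 6 each; log2 fold change -0.88, SE 0.20, adjusted p of 0.130 in edgeR). Bnip3 and Cited2 stood at -0.58 and -0.40. With the lymphoid covariate 1 gene of the list was lower and 1 higher, and without AAV-GFP-2011 and AAV-GFP-2014 2 were lower and 1 higher, where 4.92% and 4.95% of all genes were lower and 4.29% and 2.16% higher.

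The glucocorticoid list had the lowest median of the 8 lists, -0.56. All 14 of its genes had a negative log2 fold change, against 48.8% of all genes. Of the 14, 8 had an unadjusted p under 0.05 (Cebpd, Errfi1, Zbtb16, Per1, Sgk1, Klf9, Angptl4 and Dusp1), where 9.54% of all genes were lower. Errfi1, a feedback inhibitor of the EGF receptor, had 65.1 ± 28.9 CPM in AAV-GFP and 28.9 ± 5.85 CPM in AAV-Notum mice (SD, n = 6 each; log2 fold change -1.17, SE 0.27, adjusted p of 0.130 in edgeR). Zbtb16, a zinc finger factor, ran from 107 to 302 CPM in AAV-GFP and from 48.7 to 115 CPM in AAV-Notum mice (log2 fold change -1.09, adjusted p = 0.140). Cebpd, a factor of early adipocyte differentiation, had 26.9 ± 8.27 CPM and 13.6 ± 3.55 CPM (log2 fold change -0.98, adjusted p = 0.124). Errfi1 passed the threshold without AAV-GFP-2022, where 0.93% of all genes were called lower. Nr3c1, the receptor, stood at -0.30 (adjusted p = 0.366). With the lymphoid score as a covariate all 14 values were still negative, and the median was -0.55.

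**Figure D5:**
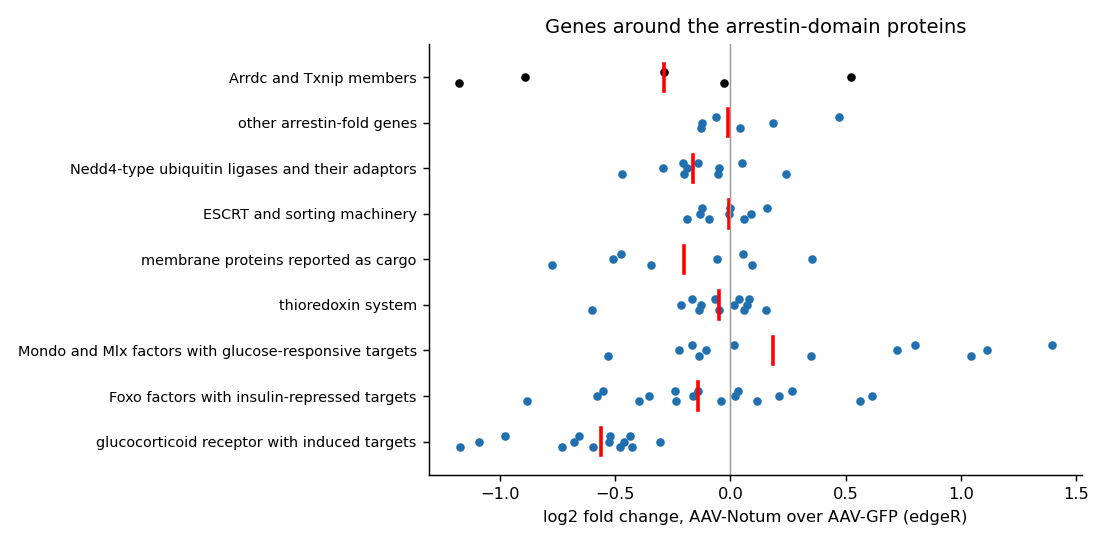
Log2 fold changes, AAV-Notum over AAV-GFP, of the 5 members (black) and of 89 tested genes in 8 related lists (blue), with 1 point per gene and a red bar for each list's median. The glucocorticoid list lies wholly below 0 (median -0.56), and the Mondo and Mlx list reaches to 1.40.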

How the data were processed

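iWAT of 12 mice was sequenced by the authors as TruSeq libraries with 50 bp single-end reads on a HiSeq4000, checked with FastQC, mapped to mm10 with STAR 2.3.1 and tested with DESeq2. The counting program, annotation and use of strand are not given in the sources used here. The authors deposited raw counts per gene, and log2 values of counts scaled by a size factor per mouse. When the scaling was undone, 100% of the deposited log2 values came out as whole reads, to within 0.01 reads plus 1e-05 of the value, which served as an alternative.

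The analysis used edgeR 4.0.16 under R 4.3.3: filterByExpr (minimum count 10, minimum total 15), TMM, glmQLFit and a two-sided quasi-likelihood test, with Benjamini-Hochberg adjustment over 15585 genes and a threshold of 0.05. A prior count of 2 enters log2 CPM. Standard errors (SE) were derived from the fold change and its F statistic. The fits were tested on simulated counts. Alternatives were DESeq2 1.42.0, limma-voom 3.58.1, size factors by RLE, a low filter of 1 count, covariates, the recovered reads and each mouse left out. Members and lists were chosen with earlier results of these data known. Named genes are the members, 3 genes of smallest p per list, 5 genes most like Arrdc3, and Notum. Others were named after their values were seen. Mice are replicates, at 14711113 to 21618860 reads each, and members with few reads carry more counting error. Positions are from GENCODE vM21. Promoter sequences are from RefSeq (GRCm38.p6), and all 5 members matched by symbol. Figures used matplotlib 3.10.9 in Python 3.11.15.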

Additional observations from a re-analysis of the deposited data

Results flagged for a closer look

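Levels of the members and of the marker lists were searched for a mouse far from the rest of its group, in 24 sets of 6 mice. By chance 1.2 sets would be marked, and 1 was. The macrophage marker score of AAV-GFP-2014 was 4.94 log2 CPM, against 5.74 to 6.00 in the other AAV-GFP mice, with a gap of 0.758 of the group's range, past the critical value for 6 values. The same mouse had the highest Txnip (3108 CPM), the lowest Arrdc1 (12.7 CPM) and the lowest lymphoid score (-0.70). No level of a member was marked.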

How the results depend on the processing

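Of the 5 members, edgeR called 1 and DESeq2 called 2, and leaving out single mice gave 0 to 2. Size factors by RLE, the RNA integrity number as a covariate and the recovered reads each called 1, Arrdc3 (adjusted p of 0.0422, 0.0222 and 0.049 in edgeR). Those fits called 13, 6 and 10 of all genes lower. The count was 0 in 4 settings: limma-voom, a filter of at least 1 count, the lymphoid covariate and leaving out both mice of low lymphoid markers (AAV-GFP-2011 and AAV-GFP-2014). Those 4 settings called 6, 5, 4 and 1 of all genes lower, against 8 with edgeR on all mice, so a count of 0 among 5 members is near that share. In those 4 settings the log2 fold change of Arrdc3 was -1.15, -1.17, -1.24 and -1.27, with adjusted p of 0.0576, 0.0572, 0.0782 and 0.131, so the size held and the call did not. Leaving out single mice gave -1.27 to -1.09. For Txnip, called by DESeq2 (-0.88), single mice gave -0.97 to -0.77; for Arrdc1 0.39 to 0.67, for Arrdc2 -0.35 to -0.16, and for Arrdc4 -0.0677 to 0.0178, positive without AAV-Notum-2033 (0.0072) and AAV-GFP-2022. The ratio of Arrdc3 to the other members ran from -1.11 to -0.91.

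Among related genes, called lower were 0 in edgeR and 5 in DESeq2, and called higher 0 and 1. At an unadjusted p under 0.05, 17 were lower in the fit of all mice, 9 with the lymphoid covariate and 8 without both mice, and 4, 12 and 7 were higher. Over all genes 1487, 767 and 792 were lower and 723, 668 and 345 higher. Leaving out single mice gave 0 to 1 called lower, 0 called higher, 13 to 26 lower and 3 to 6 higher at the unadjusted threshold, where 1053 to 2138 of all genes were lower and 455 to 1625 higher. The cause was not tested.

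In the order of levels, coding length gave log2 differences of 4.52 (Txnip over Arrdc3), 2.20 (Arrdc3 over Arrdc1), -0.31 (Arrdc1 over Arrdc4, reversed) and 3.86 (Arrdc4 over Arrdc2). AAV-Notum mice gave 5.72, -0.89 (reversed), 1.04 and 3.85, and with coding length, an alternative chosen after seeing the data, 4.82, 0.45, 0.31 and 4.13. Leaving out single AAV-GFP mice gave 5.32 to 5.54, 0.67 to 1.11, 0.25 to 0.55 and 3.50 to 3.66. The correlation of Arrdc1 with the lymphoid score went from 0.86 to 0.96 without both mice. No paired analysis was possible because the groups share no replicate numbers. The lowest read counts lay behind Arrdc2, with 17 to 56 reads per mouse.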

Other observations

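Markers of other cell types also ran with Arrdc1 and Txnip between mice, after group means were subtracted (n = 12, as descriptions from 1 library per mouse). Endothelial markers had r = -0.91 with Arrdc1 and 0.78 with Txnip. The mammary epithelial score had r of 0.82 and -0.86. It rested on 2 of 8 markers, Epcam (1 to 53 reads) and Cdh1 (10 to 126 reads). Krt5, Krt14 and Csn3 had at most 1, 2 and 7 reads and Wap had 0, so the score does not show mammary cells. Hepatocyte markers, whose mean level was 0.16 to 8.39 log2 CPM with AAV-GFP and 0.03 to 5.85 with AAV-Notum, had r of 0.21 with Arrdc1, -0.22 with Arrdc3 and -0.30 with Txnip. Muscle markers, from -0.35 to 8.78 log2 CPM over all mice, had r of -0.71 with Arrdc1, 0.46 with Txnip and 0.02 with Arrdc3. For Arrdc3, the correlations with the 7 marker lists ran from -0.22 to 0.22. Without AAV-GFP-2011 and AAV-GFP-2014 (n = 10) they ran wider, with -0.59 for hepatocyte, -0.53 for mammary, 0.36 for endothelial and 0.34 for adipocyte markers. The part of any of these cells in the levels of the members was not tested, apart from the lymphoid covariate.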
